A study of Mus musculus with 17 samples.

Results

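A group of 10 cytokine receptor and IL-1 pathway genes was followed through the RNA sequencing of sorted mouse β cells. They were *Il1r1*, *Il1rap*, *Il1rn*, *Il6ra*, *Il6st*, *Ifngr1*, *Ifngr2*, *Csf2rb*, *Tnfrsf1a* and *Il22ra1*. They were taken by gene symbol from the 55357 genes in the deposited files. The 17 libraries came from male mice and formed 4 groups. Control β cells, whose genotype is labelled WT, came from Tdtomato mice and were cultured as islets for 3 days in 2.8 mM glucose (n = 3) or 16.7 mM glucose (n = 4). PCBP2KO β cells came from RIPCre+;Pcbp2Fl/Fl;Tdtomato mice and were cultured in the same 2 glucose concentrations (n = 5 each). In both genotypes, per the study's methods, Cre was driven by the rat insulin promoter and switched on a tdTomato reporter, islets recovered in culture before the glucose incubation, and live tdTomato-positive cells were sorted from dispersed islets. The age of the mice and whether a library pooled animals were not given in the sources used here, so p values measure the spread between these libraries. All members lie on autosomes of the GRCm39 assembly, for example *Il1rap* at chr16:26400350-26548880, *Csf2rb* at chr15:78209952-78238047, *Il1r1* at chr1:40264174-40356417 and *Tnfrsf1a* at chr6:125325566-125339632, all on the plus strand.

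IL-1β, tumor necrosis factor and interferon-γ are the cytokines most often used to injure β cells in culture, and the β cell is known for a high level of the type 1 IL-1 receptor. IL-1 binds IL1R1, which signals only after the accessory chain IL1RAP joins it, and the antagonist encoded by *Il1rn* occupies IL1R1 without recruiting that chain. The other receptors follow a similar plan, with a chain that binds the ligand (IL6RA, IFNGR1) and a chain that carries the signal to Janus kinases (gp130 from *Il6st*, IFNGR2, and the common β chain from *Csf2rb*, shared by IL-3, IL-5 and GM-CSF). PCBP2, the protein removed here, binds cytosine-rich RNA and can change the stability of the mRNAs it binds.

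*Pcbp2* was measured before anything else as a check of the genotype labels. Its level was 62.5 ± 11.4 CPM (read counts relative to library size after TMM scaling, mean ± SD, n = 3) in control cells at 2.8 mM and 40.4 ± 5.27 CPM (n = 4) at 16.7 mM, against 17.4 ± 1.39 and 7.66 ± 1.68 CPM (n = 5 each) in PCBP2KO cells. Each PCBP2KO library lay below each control library. Total counts ranged from 47385513 to 82419400 per library. The summed level of 9 β cell markers was 118400 to 122600 CPM in control cells at 2.8 mM and 271400 to 525500 CPM at 16.7 mM. In PCBP2KO cells it was 66800 to 96940 CPM at 2.8 mM, below the control range, and 358400 to 474500 CPM at 16.7 mM. Of the 9 libraries at 16.7 mM, 3 (control replicate 4 and PCBP2KO replicates 4 and 5) had TMM factors between 0.939 and 1.01, against 0.752 to 0.86 in the other 6, and results at 16.7 mM are also given without them. Marker sums of other cells were lower than the β cell sum in each library but not 0. The sum of 4 alpha cell markers was 638 to 2566 CPM in control and 1473 to 9196 CPM in PCBP2KO cells at 2.8 mM, and 262 to 1463 against 174 to 1322 CPM at 16.7 mM. The highest alpha sum, 9196 CPM, came in the library with the lowest β cell sum, 66800 CPM. At 2.8 mM the PP cell marker *Ppy* was 797 to 835 CPM in control and 992 to 5112 CPM in PCBP2KO cells. The sum of 5 T or B lymphocyte markers was 2.48 to 3.76 against 5.62 to 10.9 CPM there. The sums of the other non-β cell types overlapped between genotypes at 2.8 mM. The part of these differences in the knockout results at 2.8 mM was not tested. In bulk samples, fewer cells of a type and less RNA per cell cannot be told apart.

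Compared per length, in TPM, which divide by transcript length, *Il1r1* was the most abundant member in each group. In control cells at 2.8 mM it had a mean of 82.2 ± 11.1 TPM (n = 3), followed by *Tnfrsf1a* with 29.6 ± 2.60, *Ifngr1* with 18.7 ± 2.90, *Il6st* with 13.7 ± 1.05, *Ifngr2* with 8.31 ± 1.60 and *Il6ra* with 6.11 ± 1.76 TPM. *Il1rap*, the accessory chain, had 3.56 ± 1.16 TPM, *Csf2rb* 2.37 ± 1.55 TPM and *Il1rn* 0.333 ± 0.151 TPM. The ranges of *Ifngr2* and *Il6ra*, of *Il6ra* and *Il1rap*, and of *Il1rap* and *Csf2rb* overlapped, whereas the other neighbors in this order did not. In PCBP2KO cells at 16.7 mM the order of the means differed, with *Il1rap* at 0.666 ± 0.249 TPM, *Csf2rb* at 0.0419 ± 0.0299 TPM, and *Il1rn* at 0.0906 ± 0.0641 TPM (n = 5 each). The ranges of *Csf2rb* and *Il1rn* overlapped there, on 5 to 29 and 12 to 46 counts per library. The mean of *Il6ra* (5.76 ± 0.649 TPM) was above that of *Il6st* (4.42 ± 0.772 TPM), also with overlapping ranges. *Il22ra1*, the chain that gives epithelial cells their response to IL-22, had 0 to 4 counts per library and did not pass the expression filter. The other 9 members were tested, among 22784 genes.

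The knockout was associated with lower levels of several members, with more of them called at 16.7 mM than at 2.8 mM glucose. A gene was called at a Benjamini-Hochberg adjusted p under 0.05 in edgeR's quasi-likelihood test, over all genes tested, with a fold change over 1.5. At 16.7 mM, 5 of the 9 members tested were called and all 5 were lower in PCBP2KO cells (*Csf2rb*, *Il1rap*, *Ifngr2*, *Il6st* and *Tnfrsf1a*), where 1.71% of all genes tested were called and 1.42% were called lower. The median log2 fold change of the 9 members was -0.66, beside 0.01 over all genes. At 2.8 mM, 2 of 9 were called, both lower (*Csf2rb* and *Tnfrsf1a*), where 2.04% of all genes were called and 1.78% were called lower, and the member median was -0.24 beside 0.03. Without the 3 libraries the counts were again 5 and 2, and with limma on log2(TPM + 1) they were 2 and 0. The members were chosen with earlier results of these data known. Their shares and medians therefore describe these genes and cannot show how cytokine receptors as a class respond.

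**Figure D1:**
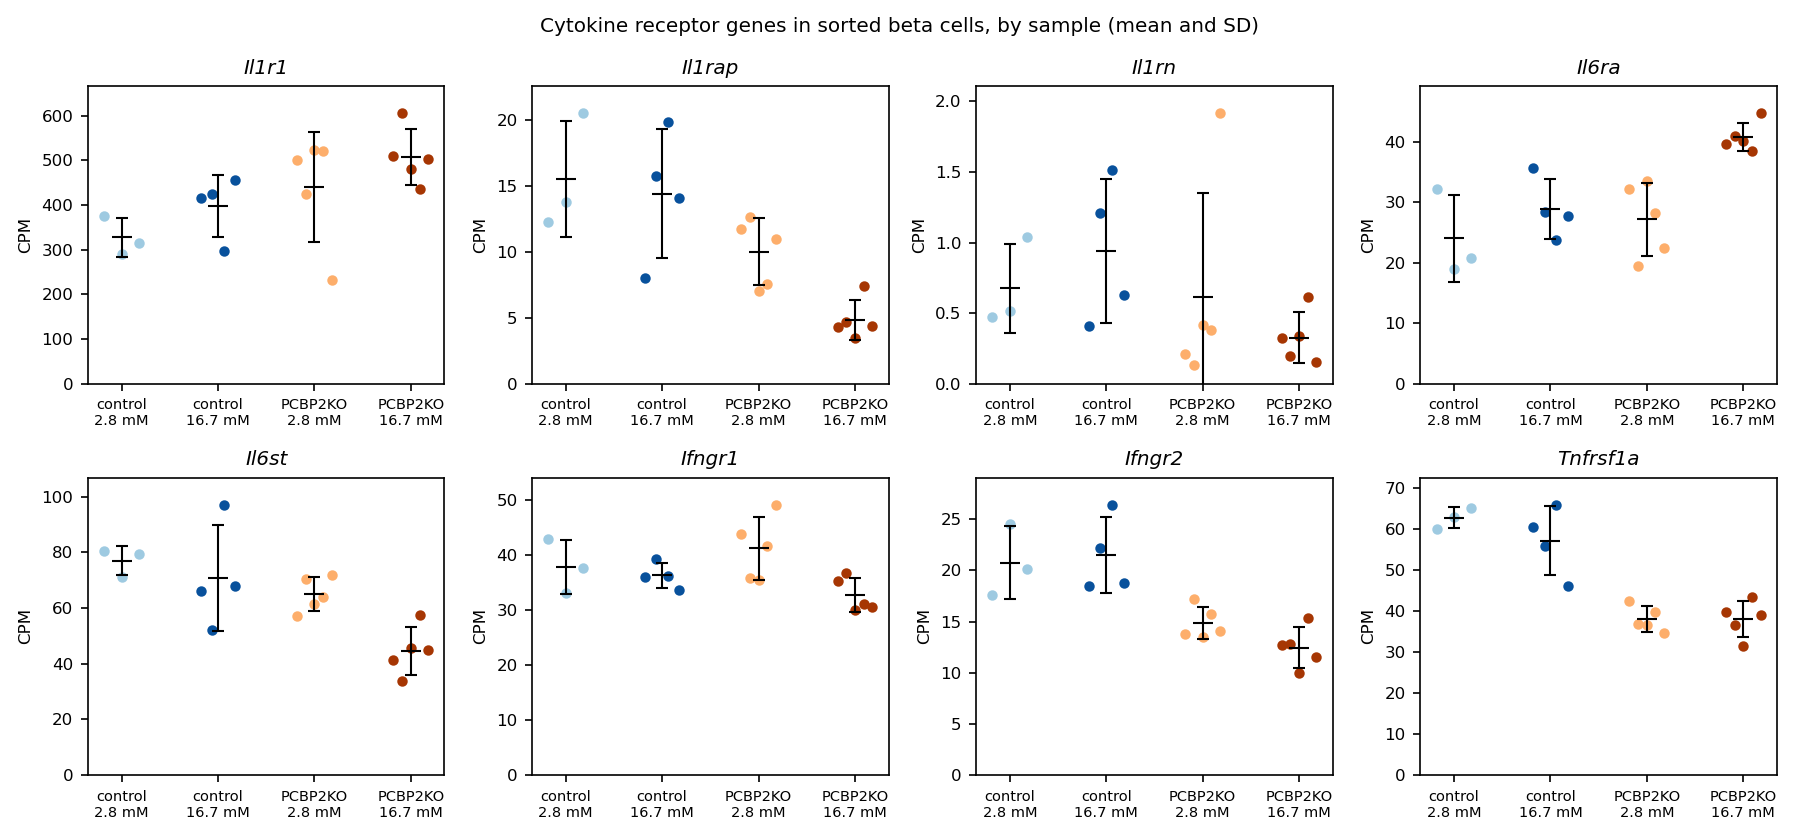
Level of 8 members in each library, in TMM-scaled CPM on linear axes from 0, with 1 point per sample and the group mean and SD in black (an SD that would reach below 0 is cut at the axis). *Ifngr2* and *Tnfrsf1a* were lower in every PCBP2KO library than in every control library of the same glucose concentration, and *Il1rap* at 16.7 mM only.

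The IL-1 receptor complex was affected in its accessory chain. *Il1rap* measured 12.2, 13.8 and 20.5 CPM in the 3 control libraries at 2.8 mM and 7.995, 15.7, 19.9 and 14.1 CPM in the 4 control libraries at 16.7 mM. The PCBP2KO libraries had 11.8, 12.6, 6.997, 7.56 and 10.99 CPM at 2.8 mM and 4.31, 4.67, 3.42, 7.41 and 4.33 CPM at 16.7 mM. The genotypes overlapped at 2.8 mM and did not at 16.7 mM, where the highest PCBP2KO library lay just under the lowest control library. The knockout lowered *Il1rap* 2.98-fold at 16.7 mM (log2 fold change -1.58, SE 0.27, adjusted p = 0.00303), and without the 3 libraries the log2 fold change was -1.81 (adjusted p = 0.00549). At 2.8 mM the log2 fold change was -0.64 (SE 0.29, adjusted p = 0.359). High glucose lowered *Il1rap* 2.07-fold in PCBP2KO cells (log2 fold change -1.05, SE 0.26, adjusted p = 0.00489), while in control cells the difference was -0.11 with an interval of 2 SE from -0.72 to 0.51. The latter depends on the scale. In TPM, *Il1rap* in control cells was 3.56 ± 1.16 at 2.8 mM and 1.98 ± 0.746 at 16.7 mM, with no overlap. The interaction itself was -0.94 on the log2 scale (SE 0.40), with an unadjusted p of 0.0314 and an adjusted p = 1, so that a different glucose response in the 2 genotypes was not shown.

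*Il1r1*, which binds IL-1, was not lower. Its level was 376, 291 and 315 CPM in control cells at 2.8 mM and 417, 424, 297 and 455 CPM at 16.7 mM. The PCBP2KO libraries had 500, 424, 522, 521 and 231 CPM at 2.8 mM and 511, 606, 481, 436 and 503 CPM at 16.7 mM. The groups overlapped in each comparison. The log2 fold change between genotypes was 0.43 at 2.8 mM (2 SE interval -0.01 to 0.86, adjusted p = 0.435) and 0.35 at 16.7 mM (-0.05 to 0.75, adjusted p = 0.533), so a decrease of the size seen for *Il1rap* lay outside both intervals. The ratio of *Il1r1* to *Il1rap* TPM is given as a description, with no test. It was 24.9 ± 9.05 and 32.1 ± 16.0 in control cells at 2.8 and 16.7 mM, and 52.0 ± 23.7 and 109 ± 31.8 in PCBP2KO cells. At 16.7 mM it ran from 62.1 to 150 in PCBP2KO cells and from 14.9 to 53.0 in control cells.

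*Il1rn*, the receptor antagonist, was near the limit of measurement, at 0.129 to 1.92 CPM. In control cells it ranged from 0.475 to 1.04 CPM at 2.8 mM and from 0.409 to 1.51 CPM at 16.7 mM. In PCBP2KO cells at 16.7 mM it ranged from 0.154 to 0.616 CPM, on 12 to 46 counts per library, with a log2 fold change against control of -1.53 (SE 0.65, adjusted p = 0.339). At 2.8 mM the difference was -0.14 (SE 0.69, adjusted p = 0.966), and its direction rested on single libraries, with a range from -1.26 to 0.31 when each was left out in turn.

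Of the IL-6 receptor chains, the signaling chain was called lower in PCBP2KO cells and the ligand-binding chain was not. The difference between chains of a receptor was not tested. *Il6st*, whose product gp130 is shared by IL-6, LIF, oncostatin M and related cytokines, measured 80.5, 71.0 and 79.4 CPM in control cells at 2.8 mM and 65.9, 52.1, 97.1 and 67.8 CPM at 16.7 mM. In PCBP2KO cells it measured 57.1, 70.5, 61.5, 64.0 and 71.8 CPM at 2.8 mM and 41.3, 33.8, 45.6, 57.4 and 44.9 CPM at 16.7 mM. At 16.7 mM 1 PCBP2KO library, at 57.4 CPM, lay above the lowest control library. The knockout lowered *Il6st* 1.59-fold there (log2 fold change -0.66, SE 0.16, adjusted p = 0.0416). This call was close to the threshold, since it was lost in 12 of 17 fits that left out a library, and without control replicate 3 the log2 fold change was -0.47 (adjusted p = 0.23). At 2.8 mM the log2 fold change was -0.24 (SE 0.18, adjusted p = 0.629).

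*Il6ra*, which binds IL-6, measured 32.3, 19.0 and 20.9 CPM in control cells at 2.8 mM and 35.6, 28.3, 23.7 and 27.8 CPM at 16.7 mM. In PCBP2KO cells it measured 32.3, 19.4, 33.5, 28.2 and 22.5 CPM at 2.8 mM and 39.6, 40.9, 40.2, 38.6 and 44.8 CPM at 16.7 mM. The PCBP2KO libraries at 16.7 mM were thus the highest of all and did not overlap any other group. High glucose raised *Il6ra* 1.5-fold in PCBP2KO cells (log2 fold change 0.59, SE 0.17, adjusted p = 0.0126), at the edge of the fold threshold. The call ended without the 3 libraries (0.53, adjusted p = 0.0617) and with total counts as library sizes (0.11, adjusted p = 0.67), and the direction turned on the log2(TPM + 1) scale (-0.31). Between genotypes the log2 fold change was 0.18 at 2.8 mM (adjusted p = 0.786) and 0.50 at 16.7 mM (SE 0.18, adjusted p = 0.227).

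Of the interferon-γ receptor chains, the signaling chain was likewise called and the ligand-binding chain was not. *Ifngr2*, the chain that brings JAK2 to the receptor, measured 17.6, 24.6 and 20.2 CPM in control cells at 2.8 mM and 18.5, 22.2, 26.4 and 18.8 CPM at 16.7 mM. PCBP2KO cells had 13.8, 17.2, 13.4, 15.8 and 14.1 CPM at 2.8 mM and 12.7, 12.8, 9.98, 15.3 and 11.5 CPM at 16.7 mM. No PCBP2KO library reached the lowest control library at either concentration. The knockout lowered *Ifngr2* 1.72-fold at 16.7 mM (log2 fold change -0.79, SE 0.15, adjusted p = 0.00889), and without control replicate 3 the log2 fold change was -0.67 (adjusted p = 0.0537). At 2.8 mM it was -0.48 (SE 0.17, adjusted p = 0.173). *Ifngr1*, the ligand-binding chain, ranged from 33.0 to 42.8 CPM in control cells and from 30.04 to 49.1 CPM in PCBP2KO cells. Its log2 fold change between genotypes was 0.12 at 2.8 mM (2 SE interval -0.14 to 0.39) and -0.15 at 16.7 mM (-0.39 to 0.09), with adjusted p = 0.775 and 0.722.

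*Tnfrsf1a*, the main receptor for tumor necrosis factor on most cells, was called lower in PCBP2KO cells at both concentrations, at the edge of the thresholds at 16.7 mM. It measured 59.9, 62.9 and 65.1 CPM in control cells at 2.8 mM and 60.5, 55.7, 65.9 and 46.1 CPM at 16.7 mM. PCBP2KO cells had 42.4, 36.8, 36.4, 39.7 and 34.6 CPM at 2.8 mM and 39.7, 36.6, 31.4, 43.3 and 39.02 CPM at 16.7 mM. All PCBP2KO libraries lay below all control libraries. The knockout lowered it 1.65-fold at 2.8 mM (log2 fold change -0.72, SE 0.13, adjusted p = 0.00322) and 1.5-fold at 16.7 mM (-0.59, SE 0.12, adjusted p = 0.0115). The call at 16.7 mM was kept in 11 of 26 other fits and lost in the rest, on the fold or on the adjusted p (up to 0.0694), with log2 fold changes from -0.76 to -0.51 over all of them. For glucose it was not called in either genotype under TMM scaling, with log2 fold changes of -0.14 (2 SE interval -0.41 to 0.13) in control cells and 0.00 (-0.22 to 0.22) in PCBP2KO cells. This depends on the scale, since its TPM was lower at 16.7 mM with no overlap, at 29.6 ± 2.60 against 15.7 ± 2.37 in control cells and 19.8 ± 2.74 against 10.04 ± 1.77 in PCBP2KO cells.

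*Csf2rb*, the common β chain, had the largest differences of the members. It measured 7.92, 2.55 and 16.0 CPM in control cells at 2.8 mM and 34.1, 37.6, 102 and 7.26 CPM at 16.7 mM. In PCBP2KO cells it measured 0.480, 0.387, 0.859, 0.919 and 1.06 CPM at 2.8 mM and 0.0855, 0.0963, 0.293, 0.147 and 0.373 CPM at 16.7 mM, the latter on 5 to 29 counts per library. The genotypes did not overlap at either concentration, although the control libraries themselves spread widely. The knockout lowered *Csf2rb* 11.9-fold at 2.8 mM (log2 fold change -3.57, SE 0.64, adjusted p = 0.00359) and 221-fold at 16.7 mM (-7.79, SE 0.75, adjusted p = 7.09e-06). Without the 3 libraries the log2 fold changes were -3.57 and -8.48.

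The glucose differences of *Csf2rb* had opposite signs in the 2 genotypes, but a different glucose response was not called in the main edgeR test. *Csf2rb* was 5.11-fold higher at 16.7 mM in control cells (log2 fold change 2.35, SE 0.70, adjusted p = 0.028), where the groups overlapped. In PCBP2KO cells it was 3.63-fold lower (-1.86, SE 0.65, adjusted p = 0.0392), and the groups did not overlap. The interaction was -4.21 on the log2 scale (SE 0.95), with an unadjusted p of 0.000333 but an adjusted p = 0.401. It was past the threshold in DESeq2 (adjusted p = 0.0194), with no filter on low counts (0.0156) and with the replicate number as a block (0.039). The increase in control cells was lost without control replicate 1 or 2 at 2.8 mM (adjusted p = 0.1 and 0.126) and without control replicate 3 at 16.7 mM (log2 fold change 1.57, adjusted p = 0.123). The decrease in PCBP2KO cells was lost in 7 of the 10 fits that left out a PCBP2KO library, with adjusted p up to 0.0901.

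Macrophages carry *Csf2rb*, and their markers were therefore summed. The sum of 13 macrophage markers was 90.9 to 180 CPM in control and 55.1 to 219 CPM in PCBP2KO cells at 2.8 mM, and 44.3 to 113 CPM in control and 27.4 to 117 CPM in PCBP2KO cells at 16.7 mM. These ranges overlapped between genotypes at both concentrations. The largest part of the sum came from *C1qa* and *Lyz2*, at up to 101 and 134 CPM, and these differed in opposite directions at 2.8 mM. The mean of *C1qa* was 81.6 CPM in control and 17.1 CPM in PCBP2KO cells at 2.8 mM and 70.8 against 47.3 CPM at 16.7 mM, and the mean of *Lyz2* was 28.5 against 89.2 CPM and 4.31 against 4.14 CPM. *C1qb* reached 19.7 CPM and was at 0 in 1 library. The defining markers *Ptprc* and *Csf1r* stayed between 0.143 and 2.15 CPM and between 0.0684 and 4.61 CPM over the 17 libraries. *Adgre1*, which encodes F4/80, was at 0 in 2 libraries and at most 2.29 CPM. The mean of *Csf1r* was 2.15 CPM in control and 3.57 CPM in PCBP2KO cells at 2.8 mM, and 0.346 against 0.272 CPM at 16.7 mM. For *C1qb* the means were 4.04 against 9.8 CPM and 0.559 against 0.536 CPM. In PCBP2KO cells the means of *Csf1r*, *C1qb* and *Lyz2* were thus lower at 16.7 than at 2.8 mM, as was that of *Csf2rb*. Those of *C1qa* and *Fcer1g* (3.48 and 5.58 CPM) were higher. PCBP2KO replicate 5 at 16.7 mM, with the highest macrophage sum at that concentration (117 CPM), had 0.373 CPM of *Csf2rb*, and control replicate 2, with a sum of 44.3 CPM, had 37.6 CPM. Within each PCBP2KO group, the library with the highest sum also had the most *Csf2rb*. At 2.8 mM these values were 219 and 1.06 CPM. In control cells this held at 16.7 mM (113 and 102 CPM). At 2.8 mM the highest control sum, 180 CPM, came with 7.92 CPM of *Csf2rb*, below the 16.0 CPM of replicate 3. The median sum was 142 CPM at 2.8 mM and 41.6 CPM at 16.7 mM in PCBP2KO cells, and 137 and 94 CPM in control cells. The part of macrophage RNA in the *Csf2rb* values was not tested.

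**Figure D2:**
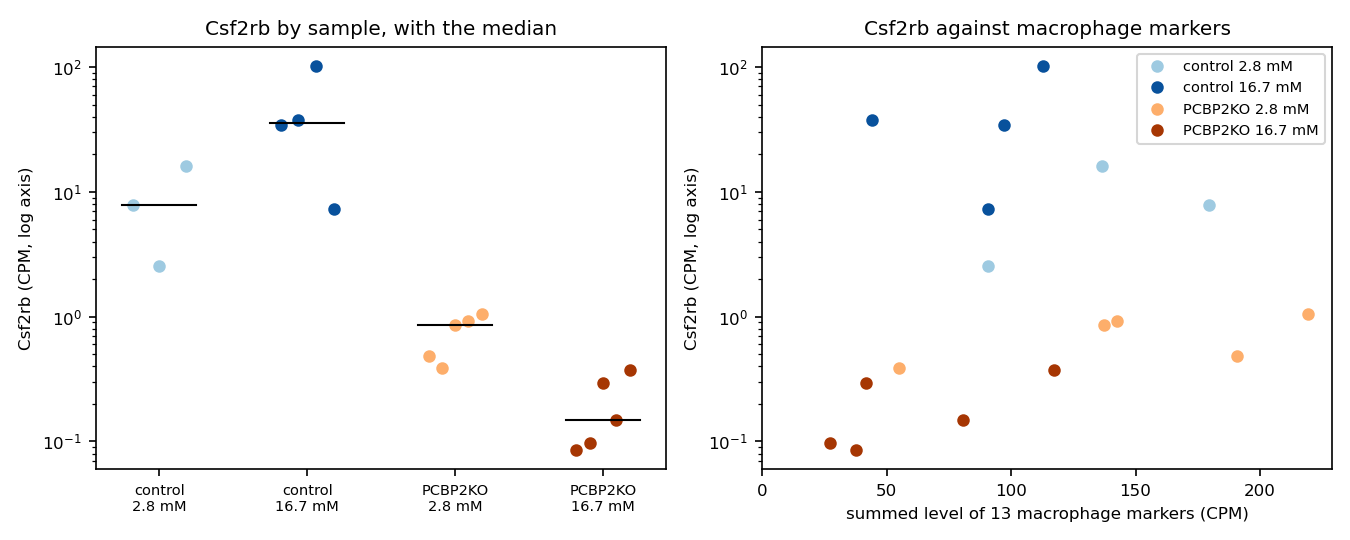
Left, *Csf2rb* in each library as TMM-scaled CPM on a log axis, with the group median as a line. Right, the same values against the summed CPM of 13 macrophage markers. The 7 control libraries lie between 2.55 and 102 CPM and the 10 PCBP2KO libraries between 0.0855 and 1.06 CPM, over overlapping ranges of the marker sum.

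*Csf2rb* has a neighboring paralog, *Csf2rb2*, which encodes a chain specific to IL-3 in the mouse and can share reads with it. *Csf2rb2* itself had 0.455 ± 0.131 and 1.01 ± 1.21 CPM in control cells and 0.541 ± 0.119 and 0.339 ± 0.148 CPM in PCBP2KO cells. With the counts of both genes pooled, an alternative chosen after the data had been seen, the log2 fold change of the knockout was -2.86 at 2.8 mM (adjusted p = 0.00919) and -6.41 at 16.7 mM (adjusted p = 1.01e-05). The glucose decrease in PCBP2KO cells was no longer past the threshold (-1.24, adjusted p = 0.0946). *Csf2ra*, the chain that pairs with the common β chain to bind GM-CSF, measured 10.8 ± 1.40 CPM (n = 4) in control and 10.1 ± 1.89 CPM (n = 5) in PCBP2KO cells at 16.7 mM, with a log2 fold change of -0.09 (SE 0.21, adjusted p = 0.924). *Il3ra*, its counterpart for IL-3, was lower in PCBP2KO cells at 2.8 mM (2.73 ± 0.307 against 1.38 ± 0.305 CPM, log2 fold change -0.98, SE 0.24, adjusted p = 0.0349), a call lost in 13 of 26 other fits.

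For glucose alone, the members moved about as often as other genes in control cells. There, 1 of 9 was called (*Csf2rb*), beside 13.8% of all genes. In PCBP2KO cells 3 of 9 were called (*Il1rap* and *Csf2rb* lower, *Il6ra* higher), beside 23.8% of all genes. *Il6st* and *Ifngr1* passed the adjusted p there but not the fold, with log2 fold changes of -0.54 (SE 0.15, adjusted p = 0.0121) and -0.33 (SE 0.11, adjusted p = 0.0348). No member was called for the interaction of genotype and glucose, where 1 gene of all those tested was called (0.00439%). *Csf2rb* and *Il1rap* had an unadjusted p under 0.05 in edgeR, and DESeq2 called *Csf2rb*. Counting libraries alone, in CPM, the groups did not overlap for 5 of the 9 members between genotypes at 16.7 mM (4.49% of all genes). These were *Csf2rb*, *Il1rap*, *Ifngr2* and *Tnfrsf1a*, lower in PCBP2KO cells, and *Il6ra*, higher but not called. The groups did not overlap for 3 members at 2.8 mM (10.9%), for 2 between glucose concentrations in PCBP2KO cells (21.6%) and for 0 in control cells (24.1%). The choice of members with earlier results known bears on these counts as well.

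**Figure D3:**
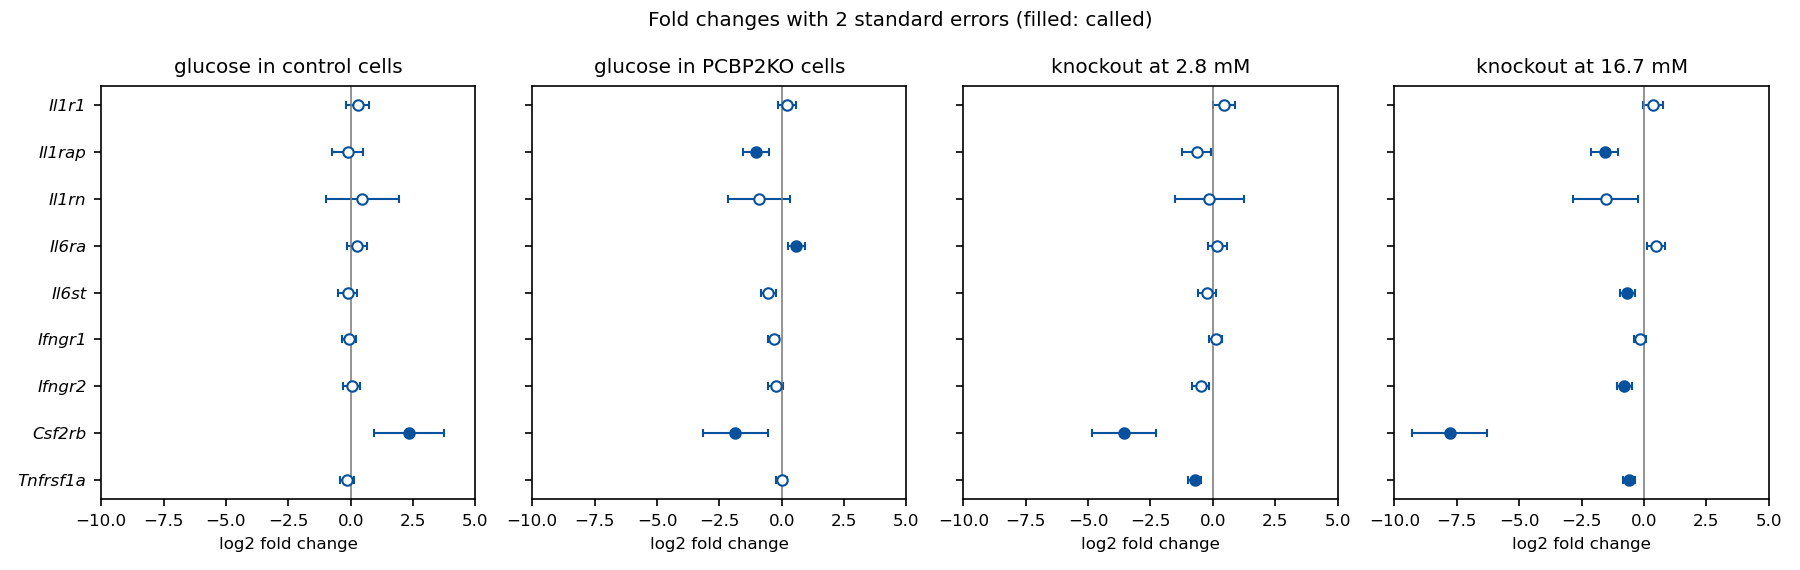
Log2 fold change of the 9 members tested in the 4 comparisons of groups, with bars of 2 standard errors. Filled points were called. *Csf2rb* lies farthest from 0 in the knockout panels, at -3.57 and -7.79, while *Il1r1* and *Ifngr1* have bars that touch or cross 0 in both.

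The transcripts behind these sums were also compared. *Il1rap* has 7 annotated transcripts in the files, of which *Il1rap*-201, a coding transcript of 4520 nt, held a mean of 76.8% of the gene's TPM, and a shorter coding transcript of 2306 nt held 19.1%. The share of *Il1rap*-201 was 79.8 ± 2.64% and 77.9 ± 8.48% in control cells at 2.8 and 16.7 mM and 74.2 ± 9.0% and 66.1 ± 12.9% in PCBP2KO cells. *Ifngr2* was divided between *Ifngr2*-201, the coding transcript, at 58.0%, and a transcript of 534 nt annotated as a target of nonsense-mediated decay, at 41.8%. The share of *Ifngr2*-201 was 57.7 ± 8.79% in control and 71.1 ± 14.9% in PCBP2KO cells at 16.7 mM. For *Il1r1*, the coding *Il1r1*-202 held 76.2% and a noncoding transcript of 473 nt held 23.3%. *Csf2rb*-201 held 74.7 ± 9.46% of the gene in control and 21.0 ± 8.06% in PCBP2KO cells at 16.7 mM, but the latter rests on 5 to 29 counts a library. Its difference of -53.8 percentage points had the smallest p that the two-sided exact permutation test of 4 against 5 libraries can give (p = 0.00794), with an adjusted p = 0.159 over the 20 comparisons of 5 genes. None of the 20 passed after adjustment in the exact permutation test, and 3 had an unadjusted p under 0.05. The remaining members with enough signal had 1 transcript with over 90% of their TPM.

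**Figure D4:**
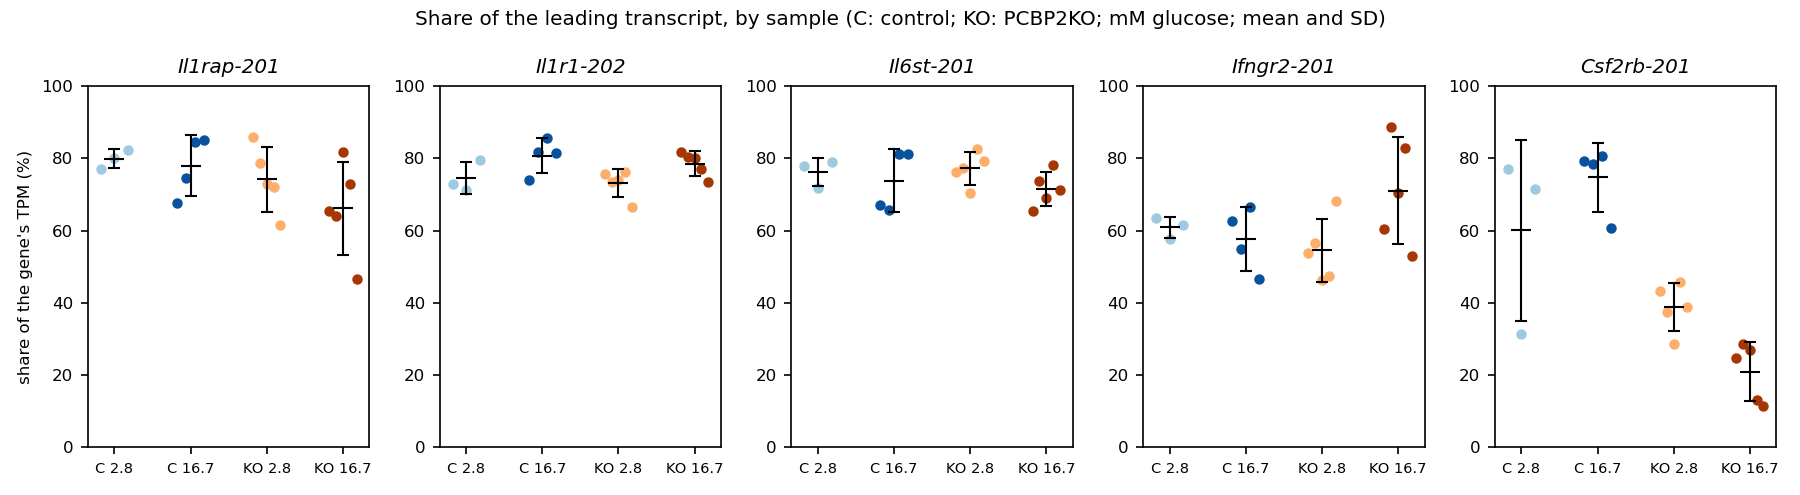
Share of the leading transcript in the gene's summed TPM, in percent, for the 5 members whose leading transcript held under 90%, with 1 point per library and the mean and SD in black. The share of *Csf2rb*-201 was 74.7% in control and 21.0% in PCBP2KO cells at 16.7 mM, and the other 4 genes had overlapping groups between genotypes.

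Because PCBP2 binds cytosine-rich RNA, the most C-rich stretch of 30 bases in the 3′ UTR of the leading coding transcript is shown for members that were lower at 16.7 mM, with runs of 3 or more C in capitals. Sequences are of the plus strand of GRCm39 with the GENCODE M39 transcript models. They lie at chr15:78233526-78233555 (*Csf2rb*), chr16:26534062-26534091 (*Il1rap*), chr16:91361166-91361195 (*Ifngr2*) and chr6:125339118-125339147 (*Tnfrsf1a*).
Csf2rb-201: ctcttCCCCCtctgtCCCtcttCCCCtCCC
Il1rap-201: ctgatgcaCCCCCacctctgttcttCCCtc
Ifngr2-201: ccagCCCaCCCCttCCCCCtcctaCCCtac
Tnfrsf1a-201: ctcagccgccgaggactgcctgagccagcc

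The *Csf2rb* stretch held 19 C, the *Ifngr2* stretch 20, the *Il1rap* stretch 15 and the *Tnfrsf1a* stretch 13. Among the 3′ UTRs of other tested genes of similar length, 18% held a stretch with at least as many C as *Csf2rb* and 15% as *Ifngr2*, but 77.8% as *Il1rap* and 71.7% as *Tnfrsf1a*. Of the tested members not called between genotypes, *Ifngr1* had a stretch with 17 C, *Il1rn* 18, *Il6ra* 17 and *Il1r1* 16, matched or exceeded in 23.3%, 27%, 71.8% and 71.2% of 3′ UTRs of similar length. The models of *Il1rn* (2544 against 1986 nt), *Il6ra* (8642 against 3343 nt) and *Il1r1* (5888 against 4832 nt) are longer than the transcripts in the files. Of those shown, the models of *Il1rap* (4677 against 4520 nt), *Ifngr2* (3763 against 3708 nt) and *Tnfrsf1a* (2175 against 2156 nt) are longer by fewer bases. The 4 lower members shown thus did not share an unusual C content in this window. A C-rich stretch is a description of the letters and not a binding site. The model of *Il6st*, the fifth lower member, is also longer in GENCODE M39 than the transcript in the files (8433 against 5207 nt), and its sequence is not shown. Its stretch, at base 4724 after the stop codon, held 21 C, matched or exceeded in 16.4% of 3′ UTRs of similar length. Of the lower members, *Csf2rb*, *Ifngr2* and *Il6st* thus had a share of 18% or less, and *Il1rap* and *Tnfrsf1a* of 71.7% or more.

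The rest of the pathway was followed through 141 genes in 8 groups, of which 125 were tested. Few of them differed between genotypes. At 2.8 mM, 0 were called higher and 5 lower (4% of the list, beside 2.04% of all genes), and at 16.7 mM 0 higher and 3 lower (2.4%, beside 1.71%). The 3 genes that were lower at both were *Cish* and *Socs2*, feedback inhibitors of receptors that signal through STAT5, and *Tnfrsf11b*, which encodes osteoprotegerin, a soluble decoy of the TNF receptor family. *Cish* measured 64.2 ± 37.3 CPM (n = 3) in control and 6.43 ± 1.07 CPM (n = 5) in PCBP2KO cells at 2.8 mM, and 137 ± 72.0 (n = 4) against 13.5 ± 3.88 CPM (n = 5) at 16.7 mM. Its log2 fold changes were -3.32 (SE 0.39, adjusted p = 4.85e-05) and -3.34 (SE 0.37, adjusted p = 4.13e-05). *Socs2* fell by 2.19 at 2.8 mM and fell by 1.68 at 16.7 mM on the log2 scale (adjusted p = 2.29e-05 and 0.000221). *Tnfrsf11b* fell by 5 at 2.8 mM and fell by 4.08 at 16.7 mM (adjusted p = 5.02e-05 and 0.00027), from 90.3 ± 60.4 CPM in control to 5.36 ± 4.34 CPM in PCBP2KO cells at 16.7 mM. *Casp8*, the initiator caspase recruited by death receptors, was lower at 2.8 mM (log2 fold change -0.78, SE 0.17, adjusted p = 0.0184) and had -0.18 at 16.7 mM (adjusted p = 0.76), and *Il3ra*, described above, was the fifth gene at that concentration.

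The adaptors that carry the IL-1 signal from the receptor, such as *Myd88*, *Irak4* and *Traf6*, were not called in the knockout. Of the 25 genes of IL-1 receptor and NF-κB signaling, 0 were called by edgeR at either concentration, with a median log2 fold change of 0.11 at 2.8 mM and -0.01 at 16.7 mM. An unadjusted p under 0.05 was reached by 5 at 2.8 mM and 1 at 16.7 mM, and DESeq2 called *Irak3*, an inhibitor of the pathway, at 16.7 mM. *Myd88* measured 22.6 ± 1.13 CPM in control and 21.3 ± 1.58 CPM in PCBP2KO cells at 16.7 mM (log2 fold change -0.09, 2 SE interval -0.30 to 0.12), and at 2.8 mM its log2 fold change was -0.35 (SE 0.11, adjusted p = 0.143). Of the 14 tested IL-1 family ligands, receptors and inhibitors, 0 were called by edgeR at either concentration (5 and 2 at an unadjusted p under 0.05), and of 10 cytokine target genes of β cells likewise 0 (2 and 2). The counts were also 0 for 10 IL-6 family genes (0 and 0 unadjusted) and 7 interferon and IL-10 family genes (1 and 1 unadjusted). DESeq2 added *Ccl5* at 2.8 mM and *Il18bp* at 16.7 mM to these groups.

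Glucose moved more of the list. In control cells 7 genes of the list were higher and 8 lower at 16.7 mM (12%, beside 13.8% of all genes), and in PCBP2KO cells 15 were higher and 23 lower (30.4%, beside 23.8%). With total counts as library sizes, which move the median of all genes to -0.35 in control and -0.47 in PCBP2KO cells on the log2 scale, 5 were higher and 28 lower in control cells and 4 higher and 47 lower in PCBP2KO cells. With the replicate number as a block, which tied same-numbered libraries over all 4 groups, 24 rather than 15 were called in control cells. *Il1b*, the ligand of IL1R1, was higher in both genotypes, at 0.421 ± 0.151 and 2.82 ± 0.856 CPM in control cells (log2 fold change 2.74, SE 0.52, adjusted p = 0.00266) and at 0.208 ± 0.137 and 2.48 ± 0.840 CPM in PCBP2KO cells (3.56, SE 0.44, adjusted p = 1.93e-05). *Il1r2*, the decoy receptor that binds IL-1 without signaling, rose with it, by 2.12 and 2.17 on the log2 scale (adjusted p = 0.0117 and 0.000962). *Sigirr*, an inhibitory receptor of the family, was lower, by -0.63 and -0.78 (adjusted p = 0.023 and 0.00076). Macrophages can express *Il1b*. The median of the macrophage marker sum was 137 CPM at 2.8 mM and 94 CPM at 16.7 mM in control cells and 142 and 41.6 CPM in PCBP2KO cells, whereas the mean of its member *Fcer1g* was 1.79 and 4.28 CPM and 3.48 and 5.58 CPM. The part of macrophage RNA in the *Il1b* values was not tested.

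Of the 25 genes of IL-1 receptor and NF-κB signaling, 3 were called for glucose in control cells (12%, beside 13.8% of all genes) and 4 in PCBP2KO cells (16%, beside 23.8%), shares no higher than over all genes. *Traf6*, *Tab2* and *Tab3* were lower at 16.7 mM in both genotypes. *Traf6*, the ubiquitin ligase of the pathway, fell from 84.2 ± 4.47 to 47.1 ± 7.25 CPM in control cells (log2 fold change -0.84, SE 0.15, adjusted p = 0.002) and from 89.4 ± 11.4 to 44.0 ± 7.27 CPM in PCBP2KO cells (-1.02, SE 0.13, adjusted p = 2.28e-05). *Tab2* and *Tab3*, subunits of the kinase complex activated by TRAF6, had log2 fold changes of -0.92 and -1.08 in control cells and -1.18 and -1.17 in PCBP2KO cells. *Stat5a* and *Stat5b*, the transcription factors downstream of the common β chain, changed by -1.28 and -0.75 in control and by -0.97 and -1.02 in PCBP2KO cells, and *Socs3*, an inhibitor of gp130 signaling, by 1.96 and 1.19. *Lifr*, which pairs with gp130 to bind LIF, rose by 0.99 (adjusted p = 0.00514) and 1.20 (adjusted p = 6.98e-05), and *Cflar*, an inhibitor of caspase-8, by 1.08 and 1.21. *Cd274*, the interferon-induced ligand PD-L1, was lower, by -1.25 and -1.

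Genes with the most similar profile to a called member, by the root mean square difference of centred log2 CPM over 17 samples among 10014 genes at 5 CPM or more, are named as a description. For *Csf2rb* they were *Pde2a* (1.27), *Slc7a7* (1.30) and *Dnah8* (1.41), against an SD of 3 for *Csf2rb* itself. For *Il1rap*, with an SD of 0.77, they were *Acsl4* (0.34), *Washc5* (0.41) and *Gcsh* (0.42). *Tnfrsf1a*, with an SD of 0.35, was most like *Commd7* (0.14), *Ensa* (0.16) and *Laptm4b* (0.17). *Ifngr2*, with an SD of 0.38, was most like *Laptm4b* (0.14), *Tnfrsf1a* (0.19) and *Tmem130* (0.20). *Il6st* was most like *Ifrd1* (0.15), *Gcsh* (0.20) and *Rab8b* (0.20), and among the genes most like *Il6ra* were *Isl1* (0.18) and *Fgd2* (0.19). *Tnfrsf1a*, itself a member, was thus among the genes nearest to *Ifngr2*, and *Laptm4b* was near both. A gene that varies little has small distances to many genes, so the distances are not compared between members.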

How the data were processed

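RNA from sorted β cells was sequenced as polyA libraries with read pairs of 150 nt. The authors pseudoaligned the reads to the mouse transcriptome (mm39) with Kallisto, whose version was not given in the sources used here, and deposited, per transcript, estimated counts that are not normalized between samples. The deposited TPM are scaled to effective length and to 1 total per sample. Samples were grouped by the labels. The study's model held a batch term whose levels the labels do not give, so it was not used here.

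Estimated counts were summed over the 142376 transcripts to 55357 genes, rounded, and fitted with edgeR 4.0.16 (R 4.3.3) on 17 libraries with TMM factors, its default expression filter, 4 group means and 5 contrasts, with the quasi-likelihood F test. Genes were called at an adjusted p under 0.05 with a fold over 1.5. Alternatives used DESeq2 1.42.0, limma 3.58.1 on log2(TPM + 1), other scalings, filters and samples. At 1000 counts the counting error is 3.16%.

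Members and lists were chosen with earlier results of these data known. Named pathway genes were called genes at 1 CPM or more with the largest changes, up to 3 per direction, group and contrast, and others are background to a member and were chosen after their values were seen. Some genes that met these rules are not reported here. Same-numbered control libraries deviated together (r from 0.123 to 0.258 over 3 pairs between glucose concentrations), so the labels' numbers pair them. In the other comparisons of groups not every pair exceeded 0.1. Between glucose concentrations in PCBP2KO cells, however, the 5 same-numbered pairs had r from 0.066 to 0.193. All of them were above the 20 pairs with different numbers there (-0.116 to 0.044). The main tests held no term for the replicate number, and only the replicate block did.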

Additional observations from a re-analysis of the deposited data

Results flagged for a closer look

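*Il1rn* in PCBP2KO replicate 5 at 2.8 mM stood at 1.92 CPM, far above the next library of its group at 0.413 CPM. It was the only such gap among the 28 groups of 4 or 5 libraries examined for the members, and chance alone sets about 1 group in 20 apart in this way. The same library had the highest macrophage marker sum of all (219 CPM) and the lowest *Il1r1* of its group (231 CPM), and their part in the value was not tested.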

How the results depend on the processing

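The lower *Csf2rb* and *Il1rap* in PCBP2KO cells at 16.7 mM kept their direction in every fit, and their calls in all but 1 (limma on log2(TPM + 1) for *Il1rap*, -0.81, adjusted p = 0.0632). Members called for glucose in control cells were 0 with total counts or with only the groups compared and 4 with limma on TPM. For glucose in PCBP2KO cells they were 5 with total counts and 6 with limma, for the knockout at 2.8 mM 0 with limma, and for the knockout at 16.7 mM 3 with total counts, 2 with limma and 3 with only the groups compared. The interaction had 1 member called in DESeq2, without a filter and with the replicate block. Pathway genes called for glucose in control cells were 33 with total counts, 49 with limma, 24 with the replicate block and 25 without the 3 libraries. For glucose in PCBP2KO cells they were 63 with limma. For the knockout they were 3 at 2.8 mM with total counts, limma or only the groups compared, and at 16.7 mM 7 in DESeq2, 5 without a filter and 6 with the replicate block. The block ended the call of *Tnfrsf1a* in the knockout at 16.7 mM (-0.57, adjusted p = 0.0256, fold under 1.5) and, beside the counts above, moved no count of members or pathway genes by over 1.5 times. Over all genes with all 17 libraries or without the 3, counts more than 1.5 times from those of the main test (3153, 5431, 464, 389 and 1 for glucose in control cells, glucose in PCBP2KO cells, knockout at 2.8 mM, knockout at 16.7 mM and interaction) were 835, 721 and 32 in DESeq2 (knockouts and interaction), 4775 and 13 with the block and 4898, 587 and 2 without the 3 libraries (glucose in control cells, then knockout at 16.7 mM for the latter, then interaction), 4837 with total counts (glucose in control cells), 15 without a filter (interaction), 238 with only the groups compared (knockout at 16.7 mM), and 6975, 8831, 283, 190 and 0 with limma. Single libraries also moved the counts behind the all-gene shares, to 1990 and 1382 for glucose in control cells without control replicate 1 or 2 at 2.8 mM, 242 for the knockout at 2.8 mM without control replicate 3, 213 and 652 for the knockout at 16.7 mM without control replicate 3 or 4, and 0 to 2 for the interaction. Leaving out 1 library gave 0 to 1, 1 to 4 and 2 to 5 members (glucose in control cells, glucose in PCBP2KO cells, knockout at 16.7 mM) and 9 to 22, 3 to 5 and 3 to 6 pathway genes (glucose in control cells, knockout at 2.8 mM, knockout at 16.7 mM). Directions turned with limma on TPM for glucose in *Traf3* (-0.08, control cells), *Il6ra* (-0.31), *Jak3* (-0.09), *Tnfrsf21* (-0.11), *Casp8* (-0.22) and *Il13ra1* (-0.31, PCBP2KO cells), a scale on which the median of all genes moved to -0.24 and -0.33. *Il1rn* in the knockout at 2.8 mM turned to 0.07 with counts rebuilt from TPM, and ranged from -1.26 to 0.31 without single libraries. The transcript share of *Il1r1* in the knockout at 2.8 mM turned to 0.44 points by estimated counts (-3.12 to 1.11 without single libraries). Shares of *Il1rap*, *Il6st* and *Ifngr2* for glucose in control cells ranged from -4.3 to 1.59, -4.96 to 0.27 and -6.17 to 0.45 points, and of *Il6st* in the knockout from -1.28 to 2.61 at 2.8 mM and from -5.03 to 0.21 at 16.7 mM. The causes were not tested. Depth limits *Il1rn*, *Il22ra1* and, in PCBP2KO cells, *Csf2rb*.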
